A study of Mus musculus with 4 samples.

Results

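The cells described here are 4521 cells of the CN4 neural stem cell (NSC) line, selected by transcripts of S-phase or mitotic genes. They are part of 18157 CN4 cells and of 45325 cells in the tables of the whole series. They were chosen by sequencing reads of 17 genes. A cell went to the S-phase side when it had a read of at least 5 of 11 genes used before and during DNA replication (*Mcm2*, *Mcm3*, *Mcm5*, *Mcm6*, *Pcna*, *Cdc6*, *Gins2*, *Ung*, *Slbp*, *Tyms* and *Rrm2*) and of at most 1 of 6 mitotic genes (*Ccnb1*, *Cdc20*, *Cenpe*, *Aurka*, *Plk1* and *Ube2c*). It went to the mitotic side when it had a read of at least 4 of the 6 mitotic genes and of at most 3 of the 11. The S-phase side held 2507 cells (13.8% of CN4 cells, exact 95% binomial interval 13.3 to 14.3) and the mitotic side 2014 cells (11.1%, 10.6 to 11.6). Which side was larger depended on the selection, since at least 2 reads of a gene gave 2120 and 2418 cells, and thinning the cells before the selection gave 2368 and 2450. Cells were thus divided by the measurement that is described, and all differences between the sides are given as descriptions of these cells, with no test.

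CN4 is an NSC line that was derived from mouse epiblast stem cells of the 129/Sv background and kept in EGF (10 ng/ml) and FGF2 (10 ng/ml) with 2 µM CHIR99021, an inhibitor of GSK3 that activates Wnt signaling. The other lines of the series shared the growth factors, XN4 and XN1 with 10 µM of the Wnt inhibitor XAV939 and KN1 with neither compound. The paper reports that the XAV939 for XN1 came from another supplier than that for XN4 and formed crystals. It holds that less of the compound was effective in XN1. Cells in the growing phase were dissociated, stored in a preservative solution and captured with the BD Rhapsody system, with 1 library for each of the 4 lines. CN4 is thus 1 line and 1 library, cells are not replicates, and any interval given here covers counting error alone, where reads were not collapsed to molecules. The CN4 library held 180825519 reads over 25685 genes. It shared 94, 320 and 169 cell barcodes with KN1, XN1 and XN4, no doublets were called, and reads from free RNA were not separated from those of the cell.

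Progression through the cell cycle rests on waves of transcription. In late G1, cyclin D and cyclin E with their kinases release E2F factors from the retinoblastoma proteins, and E2F turns on the genes that load the MCM helicase on origins, copy the DNA and supply nucleotides. From S phase to G2, the MuvB complex with B-Myb and FOXM1 turns on the genes of cyclin B, the spindle, the centromere and cytokinesis, whose promoters carry CHR and CCAAT elements, and the anaphase-promoting complex then removes many of the proteins at the end of mitosis. In the embryonic neural tube the same programme runs in the dividing progenitors of the ventricular zone. Transcript levels do not measure DNA content, so that cells in S phase by transcripts may not have begun replication, and G2 and mitosis were not separable here.

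No gap separated the cells along the counts of genes read, although fewer cells lay just under the limit of the mitotic side. The S-phase side included 486 cells with exactly 5 of the 11 genes, and 533 cells with 4 stood just outside it. A read of 2 mitotic genes kept out 983 cells that had 5 or more of the 11. The mitotic side included 588 cells with exactly 4 of the 6 genes, 790 with 5 and 636 with all 6, and 457 cells with 3 stood just outside. With 2 of the 6 genes and at most 3 of the 11 there were 778 cells, so that the number dipped at 3 mitotic genes. A further 730 cells with at least 4 mitotic genes had 4 of the 11 genes and so belonged to neither side. There were 2639 cells (14.5%) with at least 5 of the 11 and at least 4 of the 6, called cells with many of both, and 4392 cells (24.2%) with at most 1 of each, called cells with few of both. The grid of CN4 cells shows how these classes lie next to each other.

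**Figure D1:**
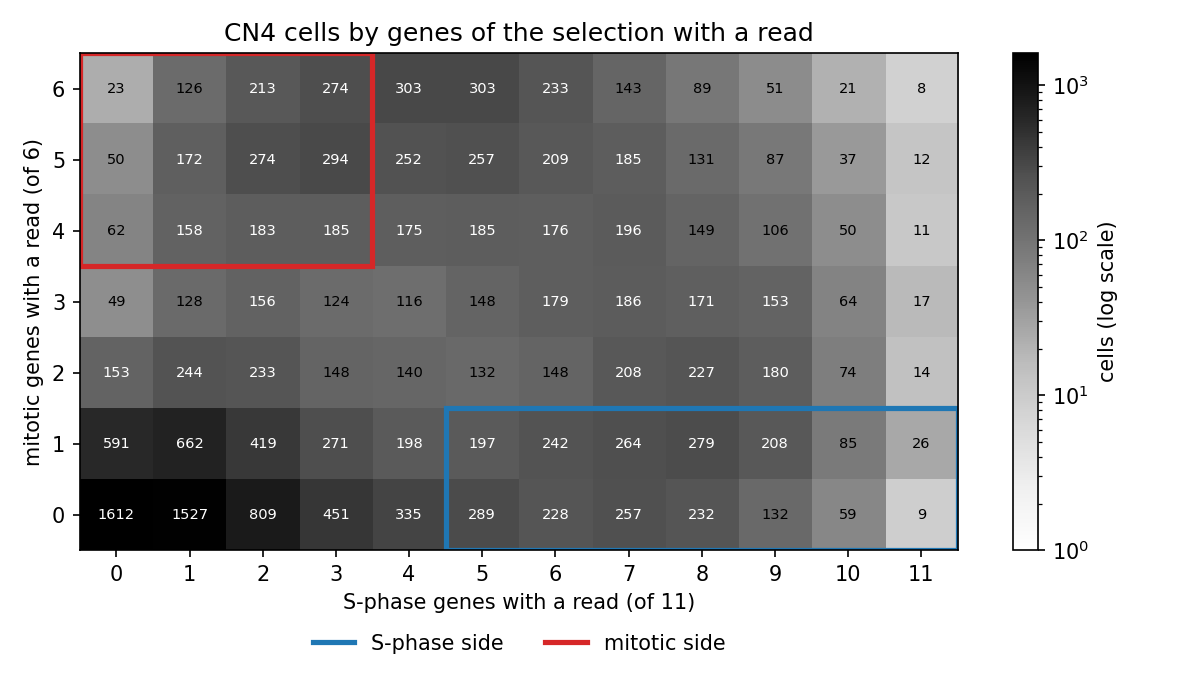
Number of CN4 cells with a read of each number of the 11 S-phase genes (horizontal axis) and of the 6 mitotic genes (vertical axis), with grey shade on a log scale and the 2 sides outlined. The most frequent combination was no read of any of the 17 genes (1612 cells), and cells filled the whole grid without a gap between the outlined sides.

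Depth differed among these classes. The median was 9647 reads and 3256 genes per cell on the S-phase side and 8867 reads and 3045 genes on the mitotic side, against 14179 reads in cells with many of both and 6815.5 reads in cells with few of both. The last classes therefore also differ in how readily a gene is read, and their depth cannot be told apart from their state here. Levels are given as RPM, the reads of a gene summed over all cells of a side for each 1000000 reads of that side, and a ratio compares the sides for the same gene, never 1 gene with another.

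The genes of the selection differed between the sides by construction, and their values only describe what was selected. *Mcm5*, a subunit of the replicative helicase, stood at 243 RPM on the S-phase side and 38.5 RPM on the mitotic side, and *Pcna*, the sliding clamp of the polymerases, at 543 and 163 RPM. *Plk1*, the kinase that drives mitotic entry, stood at 4.21 and 215 RPM, and *Cdc20*, the activator of the anaphase-promoting complex, at 5.75 and 306 RPM. Within the selection, the licensing factor *Cdc6* (88.6 and 0.79 RPM) and the uracil glycosylase *Ung* (169 and 2.27 RPM) had the lowest values on the mitotic side. *Tyms* (61.5 and 30.9 RPM) and *Rrm2* (279 and 122 RPM), enzymes of nucleotide supply, kept more of their level on the mitotic side.

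Promoters of 3 marker genes and of 3 leading genes of the sides are shown, chosen because they hold the motif of their side. They are the RefSeq windows of 300 bases (250 before to 50 after the start) on GRCm38.p6, written 5′ to 3′ on the gene's strand. For the S-phase side these are *Mcm5* (chr8:75109259-75109558, plus strand), *Dtl* (chr1:191575495-191575794, minus strand), which encodes the adaptor that marks CDT1 for destruction, and *Hells* (chr19:38930740-38931039, plus strand), a chromatin remodeler. Capitals mark matches to TTTNNCGC, the E2F-like motif, on either strand, and the matches in *Mcm5* overlap each other. CCAAT is left unmarked in these windows, although that of *Mcm5* held 3 CCAAT matches and that of *Dtl* held 1.
Mcm5: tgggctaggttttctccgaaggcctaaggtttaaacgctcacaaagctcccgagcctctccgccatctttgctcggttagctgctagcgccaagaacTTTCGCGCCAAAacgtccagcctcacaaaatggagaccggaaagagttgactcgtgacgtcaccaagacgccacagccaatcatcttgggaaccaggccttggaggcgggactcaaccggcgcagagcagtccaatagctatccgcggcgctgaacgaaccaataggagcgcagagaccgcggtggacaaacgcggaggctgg
Dtl: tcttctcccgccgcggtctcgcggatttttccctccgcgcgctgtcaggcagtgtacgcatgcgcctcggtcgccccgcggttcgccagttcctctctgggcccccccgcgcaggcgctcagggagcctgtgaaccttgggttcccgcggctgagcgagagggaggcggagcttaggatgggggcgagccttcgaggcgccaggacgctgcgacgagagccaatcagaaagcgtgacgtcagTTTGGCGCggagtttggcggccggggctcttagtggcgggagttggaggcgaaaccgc
Hells: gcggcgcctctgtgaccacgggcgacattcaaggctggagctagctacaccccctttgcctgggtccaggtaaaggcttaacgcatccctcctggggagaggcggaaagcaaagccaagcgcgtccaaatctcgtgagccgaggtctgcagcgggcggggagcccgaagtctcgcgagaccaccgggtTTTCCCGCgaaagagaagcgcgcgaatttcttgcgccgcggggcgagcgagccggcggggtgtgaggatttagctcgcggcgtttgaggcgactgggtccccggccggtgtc
For the mitotic side these are *Plk1* (chr7:122159185-122159484, plus strand), *Cdc20* (chr4:118437294-118437593, minus strand) and *Aspm* (chr1:139454523-139454822, plus strand), which encodes a spindle pole protein. Capitals mark matches to the CHR-like motif (TTTGAA or TTCGAA) and to CCAAT, on either strand, so that ATTGG is CCAAT on the other strand.
Plk1: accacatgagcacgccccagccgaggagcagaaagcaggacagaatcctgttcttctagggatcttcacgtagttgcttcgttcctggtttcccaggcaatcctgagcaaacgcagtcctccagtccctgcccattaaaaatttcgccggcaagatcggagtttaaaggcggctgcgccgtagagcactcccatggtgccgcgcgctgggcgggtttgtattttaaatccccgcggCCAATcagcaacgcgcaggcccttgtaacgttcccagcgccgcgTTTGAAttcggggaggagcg
Cdc20: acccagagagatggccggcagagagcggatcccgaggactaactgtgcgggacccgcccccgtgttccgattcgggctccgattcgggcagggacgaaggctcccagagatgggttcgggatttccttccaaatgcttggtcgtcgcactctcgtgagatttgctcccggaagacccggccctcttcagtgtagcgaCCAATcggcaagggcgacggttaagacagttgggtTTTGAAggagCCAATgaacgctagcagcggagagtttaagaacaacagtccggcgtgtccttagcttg
Aspm: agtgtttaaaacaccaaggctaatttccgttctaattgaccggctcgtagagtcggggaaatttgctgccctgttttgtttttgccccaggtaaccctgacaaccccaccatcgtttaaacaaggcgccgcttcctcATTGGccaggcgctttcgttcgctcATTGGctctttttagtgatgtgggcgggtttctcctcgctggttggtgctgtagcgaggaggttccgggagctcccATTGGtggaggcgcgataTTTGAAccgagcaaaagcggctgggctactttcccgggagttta

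Over all 27025 genes of the RefSeq promoter table, 5.93% held an E2F-like match, 21.7% a CHR-like match and 41.1% a CCAAT match. A gene was counted when any of its listed promoters held a match, while positions and single windows are of the first listed promoter. Of the 76 genes of the replication lists (origin licensing and firing, replication fork, nucleotide supply, repair and chromatin copying), 59 had a promoter in the table, and 20 of them (33.9%) held the E2F-like motif, 12 (20.3%) the CHR-like and 34 (57.6%) CCAAT. Among G1-S cyclin and E2F genes, 7 of 13 (53.8%) held the E2F-like motif. Of the 114 genes of the mitosis lists (cyclin-CDK switch, checkpoint, kinetochore, spindle, mitotic chromosome, cytokinesis), 91 had a promoter, and 63 (69.2%) held the CHR-like motif, 16 (17.6%) the E2F-like and 61 (67.0%) CCAAT. The CHR-like motif was most frequent among mitotic chromosome genes (13 of 15, 86.7%) and spindle genes (16 of 21, 76.2%). In the windows shown, the first base of the CHR-like match lay at position -18 in *Cdc20*, 7 in *Aspm* and 31 in *Plk1*, and the E2F-like match at -8 in *Dtl*, -62 in *Hells* and -153 and -149 in *Mcm5*, counted from the start of the transcript. The first listed window of *Pcna* held no E2F-like match, nor did those of *Ccne1* and *Chaf1b*, genes with larger ratios than *Dtl* and *Hells*. The first listed window of *Nusap1* held no match to any of these motifs. Of the 12 genes with the largest ratio on each side, 8 on the S-phase side had a promoter in the table and 5 of them held the E2F-like motif, and 10 on the mitotic side had one and 8 of them held the CHR-like motif. A match describes letters of the window and does not show that a factor bound there.

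Genes with a mean of at least 5 RPM over both sides were compared, leaving out the 17 genes of the selection. Of 10412 genes, 289 (2.78%) were at least 2-fold higher on the mitotic side and 285 (2.74%) at least 2-fold higher on the S-phase side, with a median log2 ratio (mitotic over S-phase side) of -0.04 over all genes. At a minimum of 20 RPM the counts were 195 and 135, so that their balance depended on the minimum. Of the 289 and 285 genes, 87 and 46 belonged to the cell cycle lists, so that 202 and 239 did not. Relative to the cells with few of both, 207 of the 289 mitotic genes were also at least 2-fold higher on the mitotic side. For 25 of the 289, the cells with few of both instead stood at least 2-fold above the S-phase side. On the other side, 118 of the 285 genes were at least 2-fold above the cells with few of both, and for 75 the cells with few of both stood at least 2-fold above the mitotic side. How many of all 10412 genes lay 2-fold from the cells with few of both was not counted, so these counts carry no conclusion. Those cells were shallower and were chosen for few of the selection genes. A gene read together with the selection genes would be low there by selection.

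**Figure D2:**
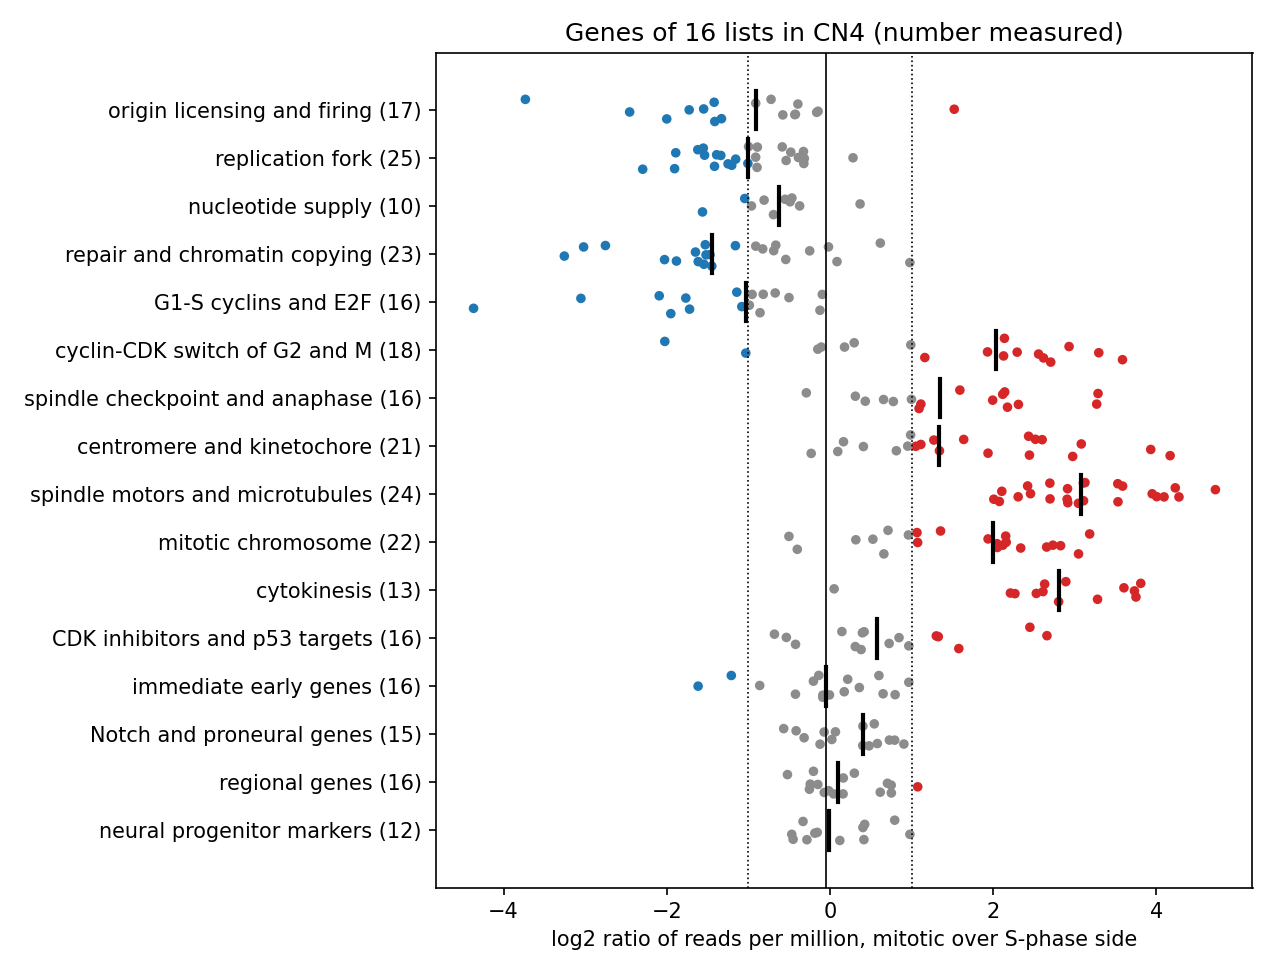
Log2 ratio of RPM, mitotic over S-phase side, for each measured gene (point) of 16 gene lists, with the list median as a black bar, dotted lines at a 2-fold difference and the solid line at the median of all genes. The spindle list lay furthest to the right (median 3.07) and the list of repair and chromatin copying furthest to the left (median -1.45), while regional and progenitor genes centred near 0.

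Genes of origin licensing and firing were higher on the S-phase side for 16 of 17 measured members, 8 of them at least 2-fold, with a median log2 ratio of -0.91. *Cdt1*, which loads the MCM helicase with CDC6, stood at 100.3 RPM on the S-phase side and 7.55 RPM on the mitotic side, a ratio of 13.3 (counting interval 11.2 to 15.8). *Mcm4*, a helicase subunit outside the selection, stood at 328 and 59.8 RPM, 5.48-fold higher on the S-phase side (5.15 to 5.84). *Wdhd1*, which joins the helicase to the polymerase, was 4.00-fold and *Orc1*, of the origin recognition complex, 3.31-fold higher. The CDT1 inhibitor *Gmnn* differed little (57.7 and 42.8 RPM). The exception was *Dbf4*, the activator of the CDC7 kinase that fires origins, at 62.1 RPM on the S-phase side and 178 RPM on the mitotic side (log2 ratio 1.52), whereas *Cdc7* itself stood at 41.6 and 31.7 RPM.

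Among replication fork genes, 24 of 25 were higher on the S-phase side and 13 at least 2-fold, with a median log2 ratio of -1.01. *Dna2*, a nuclease of Okazaki fragment processing, stood at 39.6 and 8.07 RPM, 4.91-fold higher (4.13 to 5.85). *Lig1*, the ligase that joins the fragments, stood at 218 and 74.5 RPM, and *Fen1*, the flap nuclease, at 93.4 and 36.9 RPM. *Timeless*, of the fork protection complex, was 3.74-fold and *Clspn*, the checkpoint mediator, 2.62-fold higher. The subunits of 1 complex were not alike. Of the clamp loader, *Rfc3* stood at 142 and 53.1 RPM while *Rfc5* stood at 31.1 and 37.8 RPM, and of the single-strand binding complex RPA, *Rpa2* stood at 56.0 and 19.3 RPM while *Rpa3* stood at 46.9 and 37.4 RPM.

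Nucleotide supply differed less, with 2 of 10 genes at least 2-fold higher on the S-phase side and a median log2 ratio of -0.62. *Shmt1*, an enzyme of folate metabolism, stood at 50.6 and 24.5 RPM, 2.06-fold higher. *Rrm1*, the large subunit of ribonucleotide reductase, stood at 196 RPM on the S-phase side and 254 RPM on the mitotic side. Its partner *Rrm2*, a gene of the selection, had the opposite order.

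Repair and chromatin copying had the largest difference of the replication lists, with 13 of 23 genes at least 2-fold higher on the S-phase side and a median log2 ratio of -1.45. *Chaf1b*, of the chromatin assembly factor that places histones behind the fork, stood at 130 and 15.99 RPM, 8.10-fold higher (7.20 to 9.15). *Hells* stood at 227 and 33.8 RPM, 6.73-fold higher (6.20 to 7.32). *Dscc1*, of an alternative clamp loader, was 9.55-fold higher but low, at 14.6 and 1.53 RPM. *Uhrf1* (210 and 72.0 RPM) and *Dnmt1* (196 and 87.9 RPM), which copy DNA methylation, and *Msh6* (61.9 and 15.2 RPM), of mismatch repair, were also higher on the S-phase side. *Blm*, a helicase of recombination, differed little (52.2 and 51.6 RPM), and *Fancd2*, of interstrand crosslink repair, stood at 16.9 and 33.3 RPM, below 2-fold in the other direction.

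Over the G1-S cyclin and E2F genes, 8 of 16 were at least 2-fold higher on the S-phase side and none on the mitotic side, with a median log2 ratio of -1.03. *Ccne2* and *Ccne1* encode the E-type cyclins that start replication. *Ccne2* had the largest ratio of any compared gene named on this side, 86.0 against 4.17 RPM or 20.6-fold (16.5 to 26.2), and *Ccne1* stood at 81.4 and 9.82 RPM, 8.29-fold higher (7.13 to 9.69). The factors *E2f1* (72.8 and 18.8 RPM) and *E2f2* (32.1 and 9.45 RPM) were both at least 2-fold higher, whereas the repressor *E2f8* stood at 40.8 and 25.6 RPM. *Cdk4* and *Cdk6*, the kinases of the D cyclins, differed little, at 356 and 333 RPM and at 82.5 and 75.7 RPM.

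The D cyclins *Ccnd1* and *Ccnd2* had another pattern over the classes than the E cyclins. *Ccnd1*, the growth-factor dependent cyclin, stood at 1755 RPM on the S-phase side, 412 RPM on the mitotic side and 1051 RPM in cells with few of both, a ratio of 4.26 between the sides (4.16 to 4.37). *Ccnd2* stood at 2188, 664 and 1866 RPM in the same order, 3.29-fold between the sides (3.23 to 3.36). *Ccnd3* stood at 108, 61.3 and 83.5 RPM, 1.76-fold between the sides. *Ccnd1* and *Ccnd2* were thus lowest on the mitotic side of these 3 classes, while *Ccne2* stood at 2.24 RPM and *Ccne1* at 10.5 RPM in cells with few of both, near their level on the mitotic side.

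The remaining genes of the 12 largest ratios on the S-phase side also divided in this way. *Dtl* (146, 19.7 and 10.5 RPM on the S-phase side, the mitotic side and in cells with few of both) and the transcription factor *Zfp367* (54.5, 11.7 and 8.19 RPM) were highest on the S-phase side of these 3 classes. The Ras-like *Rasl11a* (87.9, 18.1 and 96.8 RPM), the pentraxin *Nptx1* (88.1, 18.3 and 64.8 RPM) and *Hbegf* (101, 21.7 and 76.3 RPM), a ligand of the EGF receptor, were high in both other classes and low on the mitotic side. The plot of levels in the 4 classes shows both patterns.

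**Figure D3:**
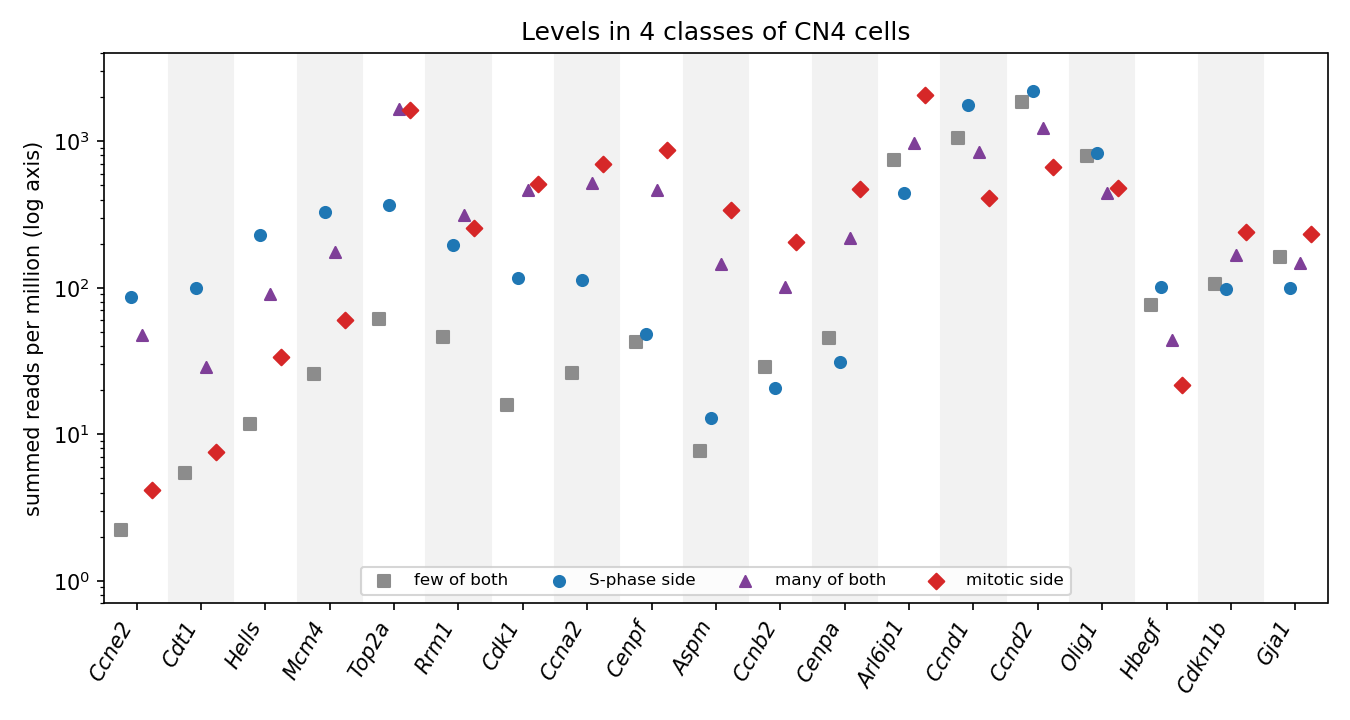
RPM (log axis) of 19 genes in cells with few of both, the S-phase side, cells with many of both and the mitotic side, 1 symbol for each class. *Ccne2*, *Cdt1* and *Hells* peaked on the S-phase side, *Aspm* and *Cenpf* on the mitotic side, and *Ccnd1*, *Ccnd2* and *Hbegf* were lowest on the mitotic side. *Olig1* was lower on the mitotic side (482 RPM) and in cells with many of both (445 RPM) than in the other classes.

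Replication-dependent histone genes were hardly measured. Their transcripts end in a stem loop and carry no poly(A) tail, and only 4 of 28 genes of the list reached 5 RPM, with a median log2 ratio of 0.42. No read of any gene of the list was present in 65.5% of cells on the S-phase side and 58.8% on the mitotic side. The list therefore gave no view of the histone supply of S phase, and *Slbp*, which binds the stem loop, was used only for the selection.

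Of the genes of the cyclin-CDK switch, 11 of 18 were at least 2-fold higher on the mitotic side and 2 on the S-phase side, with a median log2 ratio of 2.03. *Ccnb2* stood at 20.8 RPM on the S-phase side and 204 RPM on the mitotic side, 9.81-fold higher, the kinase *Cdk1* at 117 and 512 RPM and its subunit *Cks2* at 83.8 and 638 RPM. *Ccna2*, the cyclin of S phase and G2, stood at 113 and 696 RPM, 6.13-fold higher. The phosphatase *Cdc25c* was 12-fold and *Cdc25b* 4.90-fold higher. The regulators of CDK1 by inhibitory phosphorylation differed from these, with *Wee1* at 66.6 and 61.8 RPM and *Pkmyt1* at 17.4 and 8.496 RPM. The factors of the mitotic wave were themselves split, with *Foxm1* at 14.7 and 56.0 RPM and *Mybl2*, which encodes B-Myb, at 21.0 and 5.17 RPM, the latter 4.07-fold higher on the S-phase side.

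The spindle checkpoint and anaphase list had 10 of 16 genes at least 2-fold higher on the mitotic side (median log2 ratio 1.35), and the centromere and kinetochore list 14 of 21 (median 1.34). *Pttg1*, the securin that holds back separase, stood at 37.1 and 361 RPM, 9.75-fold higher, and the checkpoint kinase *Bub1b* was 9.63-fold and *Mad2l1* 2.16-fold higher. *Cenpf*, which couples kinetochores to motors, stood at 48.6 and 874 RPM (18.0-fold), and *Cenpa*, the histone H3 variant of the centromere, at 30.9 and 472 RPM (15.2-fold). *Spc25*, of the NDC80 complex, was 8.45-fold higher. Other members of the same structures were nearly level. *Cenph* stood at 56.3 and 60.2 RPM, *Zwint* at 276 and 310 RPM, and *Cdc16*, a subunit of the anaphase-promoting complex, at 94.4 and 77.3 RPM.

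All 24 genes of spindle motors and microtubules were at least 2-fold higher on the mitotic side, with a median log2 ratio of 3.07, the largest median of the lists. *Aspm* stood at 12.8 RPM on the S-phase side and 339 RPM on the mitotic side, 26.4-fold higher (23.6 to 29.6). *Hmmr*, a microtubule-binding protein of the spindle, stood at 20.6 and 398 RPM (19.4-fold), *Nusap1*, which bundles spindle microtubules, at 18.2 and 310 RPM (17.1-fold), and *Tpx2*, the activator of Aurora A, at 58.2 and 672 RPM (11.5-fold). The kinesins *Kif20a* (12.9 and 243 RPM, 18.8-fold) and *Kif2c* (9.96 and 160 RPM, 16-fold) and the kinase *Nek2* (6.38 and 98.5 RPM, 15.4-fold) were also among the 12 largest ratios. The tubulin gene *Tubb4b* was 4.95-fold higher. Outside these lists, the helicase *Pif1* had the largest ratio of the 12, 1.5 and 62.1 RPM or 41.5-fold (30.0 to 58.9).

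Of mitotic chromosome genes, 15 of 22 were at least 2-fold higher on the mitotic side, with a median log2 ratio of 1.99. *Top2a*, which untangles chromatids, stood at 367 RPM on the S-phase side, 1632 RPM on the mitotic side and 1665 RPM in cells with many of both. *Mki67*, the surface protein of mitotic chromosomes, stood at 141 and 999.8 RPM (7.09-fold), and *Hmgb2* at 422 and 1618 RPM (3.83-fold). The condensins were not alike, since *Smc4* was 2.56-fold higher on the mitotic side while *Ncapd3* (38.4 and 27.1 RPM) and *Ncapg2* (97.0 and 73.5 RPM), both of condensin II, were higher on the S-phase side by less than 2-fold. *Birc5* (6.64-fold), of the chromosomal passenger complex, was higher on the mitotic side.

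Cytokinesis genes were at least 2-fold higher on the mitotic side for 12 of 13, with a median log2 ratio of 2.80. *Kif23*, of the central spindle, stood at 20.0 and 266 RPM (13.3-fold), *Kif14* at 4.53 and 60.9 RPM (13.4-fold), *Depdc1a* at 13.3 and 186 RPM (14-fold) and *Prc1*, which bundles the midzone, at 76.5 and 743 RPM (9.70-fold). The exception was the GTPase *Rhoa*, at 328 and 339 RPM. *Arl6ip1*, which shapes the endoplasmic reticulum, stood at 443 RPM on the S-phase side, 2052 RPM on the mitotic side and 741 RPM in cells with few of both.

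A few mitotic genes were lower on the S-phase side than in cells with few of both. *Cenpa* stood at 30.9 RPM against 45.6 RPM, *Pttg1* at 37.1 against 49.8 RPM and *Ccnb2* at 20.8 against 28.9 RPM. *Cdk1* (117 and 15.8 RPM), *Top2a* (367 and 61.3 RPM) and *Ccna2* (113 and 26.3 RPM) had the opposite order. Both classes were selected for a read of at most 1 of the 6 mitotic genes, a stricter limit in the deeper cells of the S-phase side (median 9647 against 6815.5 reads), and the part of this limit and of depth was not tested.

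Within each side the cells varied widely. Summed over the 114 genes of the mitosis lists, the median cell had 6919 RPM on the S-phase side (quartiles 5030 and 9635) and 28702 RPM on the mitotic side (22647 and 34786), so that the quartiles did not overlap, and 3107 RPM in cells with few of both. Over the 76 genes of the replication lists, the median cell had 6521 RPM on the S-phase side (4513 and 8340) and 3098 RPM on the mitotic side (2359 and 3918), and 1022 RPM in cells with few of both. The replication level of mitotic cells lay above that of cells with few of both and under that of the S-phase side. This was also the order of the number of S-phase genes that the selection allowed. Mitotic cells with 0 and 1 of the 11 S-phase genes had medians of 2640 and 2751 RPM.

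The levels followed the number of selected genes read. On the S-phase side the median of the replication lists was 4179 RPM in cells with 5 of the 11 genes, 6666 RPM with 7 and 8083 RPM with 10, and the 35 cells with all 11 had 7551 RPM. On the mitotic side the median of the mitosis lists was 22847, 28581 and 33687 RPM in cells with 4, 5 and 6 of the 6 genes. Depth moved with these counts, from 8161 to 12068 reads between 5 and 10 S-phase genes and from 7509 to 10689.5 reads between 4 and 6 mitotic genes, and its part in the trend was not tested. Just outside the thresholds, cells with 4 of the 11 genes had 2877 RPM of the replication lists, and cells with 3 of the 6 had 16649 RPM of the mitosis lists. Cells kept out of the S-phase side by 2 mitotic genes had 7582 RPM of the replication lists and 11761 RPM of the mitosis lists.

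Among CDK inhibitor and p53 target genes, 5 of 16 measured were at least 2-fold higher on the mitotic side and none on the S-phase side, with a median log2 ratio of 0.57. *Cdkn1b*, which encodes p27, stood at 97.6 RPM on the S-phase side, 241 RPM on the mitotic side and 106 RPM in cells with few of both. The INK4 genes *Cdkn2c* (52.6, 157 and 20.5 RPM) and *Cdkn2d* (11.3, 62.0 and 10.2 RPM) were likewise highest on the mitotic side of these 3 classes. The cyclin G gene *Ccng2* stood at 5.20, 32.8 and 17.3 RPM. *Cdkn1a*, which encodes p21, differed less between the sides (112 and 148 RPM) than from the cells with few of both (241 RPM), where *Ccng1* (238 RPM against 106 and 191 RPM) and *Btg2* (176 RPM against 64.9 and 127 RPM) were also highest.

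Immediate early genes, which respond to growth factors and to handling, centred at a median log2 ratio of -0.05, with 2 of 16 measured genes at least 2-fold higher on the S-phase side. These were *Myc* (87.5 and 37.8 RPM) and *Fosl2* (9.06 and 2.96 RPM). *Fos* stood at 104 RPM on the S-phase side, 158 RPM on the mitotic side and 336 RPM in cells with few of both, and *Egr1* at 187, 176 and 428 RPM. Of the Wnt targets and feedback genes, which bear on the CHIR99021 in the medium, 7 of 14 were measured. *Axin2* (76.1 and 78.2 RPM), *Nkd1* (29.8 and 34.7 RPM) and *Znrf3* (74.97 and 70.5 RPM) were nearly level between the sides. *Lgr5*, a receptor that strengthens Wnt signaling, stood at 37.9 and 56.3 RPM (log2 ratio 0.57). *Ccnd1*, *Myc* and *Tcf7* (8.47 and 4.01 RPM) were at least 2-fold higher on the S-phase side, and the first pair belongs to other lists too.

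Regional genes, which mark positions along the anteroposterior and dorsoventral axes, were read on both sides. The 16 measured genes, *Hox* genes as well as dorsoventral genes such as *Olig2*, summed to 2254 RPM on the S-phase side, 2217 RPM on the mitotic side and 2328 RPM in cells with few of both, with a median log2 ratio of 0.10. *Hoxb8* stood at 292 and 245 RPM, *Hoxb9* at 288 and 260 RPM, *Hoxa7* at 176 and 197 RPM and *Hoxa9* at 18.2 and 18.0 RPM. To compare shares of cells, each cell was thinned to 5500 reads, which kept 2320 and 1764 cells and left out 187 and 250. *Hoxb8* was then read in 66.6% of cells on the S-phase side (64.7 to 68.6) and 61.6% on the mitotic side (59.2 to 63.8), against 77.1% and 72.2% before thinning. *Hoxa7* was read in 50.6% (48.5 to 52.6) and 54.3% (51.9 to 56.6), against 63.2% and 64.3%. The part of free RNA in these shares was not tested, since all cells of the library are of 1 line.

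*Pax6*, which patterns the dorsoventral axis, was the only 1 of 16 measured regional genes past 2-fold. Of all genes, 2.78% and 2.74% were past it on the mitotic and the S-phase side, so that 1 of so short a list says little. *Pax6* stood at 27.8 RPM on the S-phase side, 58.6 RPM on the mitotic side and 28.1 RPM in cells with few of both. The ratio was 2.11, and its counting interval (1.92 to 2.32) included 2. *Pax6* was read in 12.9% (11.6 to 14.4) and 24.2% (22.2 to 26.3) of thinned cells, and in 19.7% and 33.5% of cells before thinning. *Hoxb5* (22.2 and 37.4 RPM), *Irx3* (14.7 and 24.8 RPM) and *Hoxc6* (35.0 and 57.0 RPM) were higher on the mitotic side by less than 2-fold. *Olig2*, a factor of ventral progenitors and the oligodendrocyte lineage, stood at 725 and 630 RPM and *Olig1* at 827 and 482 RPM, with 445 RPM in cells with many of both.

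Markers of neural progenitors were read on both sides. All 12 neural progenitor markers were measured, with a median log2 ratio of -0.02 and none past 2-fold (2.78% and 2.74% of all genes were, so that few of so short a list would be), and their sum was 9065 RPM on the S-phase side and 8057 RPM on the mitotic side. *Sox2* stood at 398 and 535 RPM, *Sox1* at 38.0 and 74.99 RPM, *Nes* at 483 and 349 RPM and *Fabp7* at 3270 and 2935 RPM. Of Notch and proneural genes, none of 15 measured passed 2-fold, with a median of 0.40, the Notch target *Hes5* standing at 40.6 and 70.3 RPM. Of the neuron markers, 3 of 9 were measured (*Map2*, *Elavl4* and *Dcx*), of the oligodendrocyte precursor markers 2 of 7, of the astrocyte markers 5 of 7, of the epiblast markers 1 of 6 and of the mesoderm and neural crest markers none of 8. The measured neuron markers summed to 480 RPM on the S-phase side and 448 RPM on the mitotic side, nearly all of it *Map2* (454 and 428 RPM), which was read in 82.5% and 79.1% of thinned cells. The oligodendrocyte precursor markers summed to 867 and 515 RPM, most of it *Olig1*, read in 91.5% and 75.5% of thinned cells, and the astrocyte markers to 496 and 514 RPM. Other members of these lists were low on both sides, such as *Tubb3* (1.89 and 2.53 RPM), *Pdgfra* (2.87 and 3.32 RPM) and *Gfap* (4.33 and 4.86 RPM). *Gja1*, the gap junction gene of radial glia and astrocytes, stood at 99.7, 234 and 163 RPM on the S-phase side, the mitotic side and in cells with few of both, the only measured gene of these lists past 2-fold. The 5 measured astrocyte markers had a median log2 ratio of -0.17 and 3 of them were higher on the S-phase side, with *Aldoc*, a glycolytic enzyme, furthest in that direction at 215 and 109 RPM (log2 ratio -0.97).

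Signs of RNA quality are given beside these contrasts, and their part in them was not tested. The median share of mitochondrial reads was 13.5% on the S-phase side and 14.6% on the mitotic side, and the 13 mitochondrial genes had a median log2 ratio of 0.15. The nuclear RNA *Malat1* stood at 1695 RPM on the S-phase side, 3191 RPM on the mitotic side and 3380 RPM in cells with few of both. Of the heat shock and stress genes, 6 of 9 were measured, with a median log2 ratio of 0.06. None was past 2-fold, where 2.78% and 2.74% of all genes were, so that none of so few says little.

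The share of reads from 83 ribosomal protein genes had 2 modes in CN4, with a trough near 5%. Fewer than 5% of reads came from these genes in 37.3% of cells on the S-phase side (35.4 to 39.3) and 45.9% on the mitotic side (43.7 to 48.1), against 40.5% of all CN4 cells, and the median share was 7.01% and 5.55%. The cells under 5% also had fewer reads (median 8445 against 10508 on the S-phase side, 7903.5 against 9612 on the mitotic side) and more mitochondrial reads (15.9% against 11.9%, and 16.8% against 12.2%). In either class the sides came from the same 17 genes, so that a cell cycle contrast within it follows from the selection. Among cells under 5%, the median log2 ratio was -1.02 for the replication lists and 2.07 for the mitosis lists, and among the others -0.92 and 2.23. Of the 289 and 285 genes past 2-fold, 264 and 252 were past it in cells under 5% and 275 and 255 in the others. These genes were called on both classes together, so that most had to be past 2-fold within each. Called within a class, genes higher on the mitotic and the S-phase side were 317 and 384 of 10452 under 5%. In the others they were 294 and 313 of 10361.

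**Figure D4:**
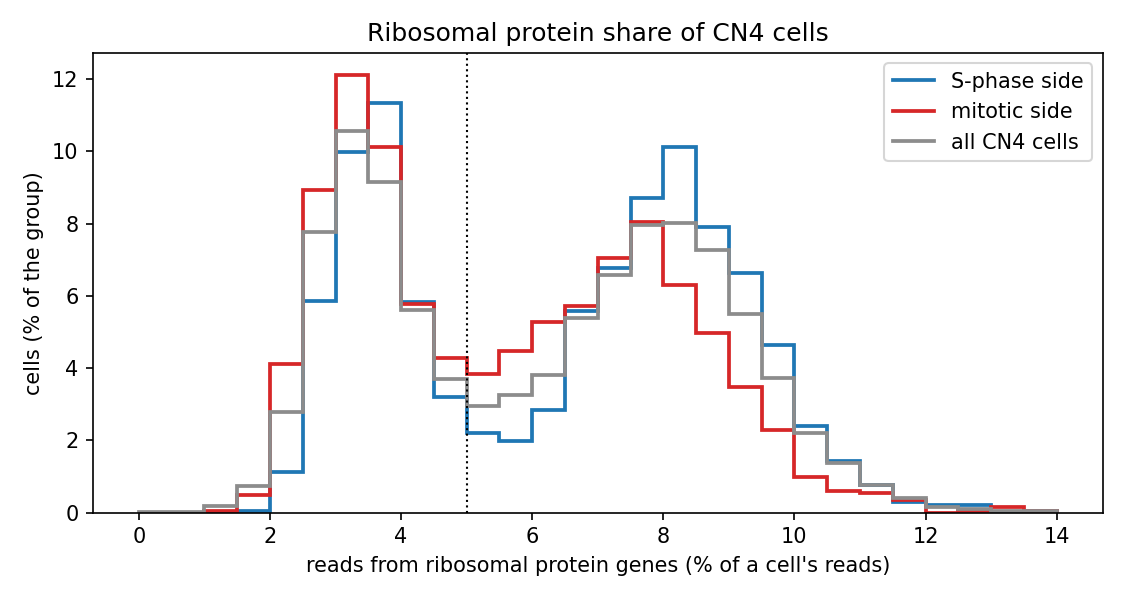
Percent of cells (vertical axis) by the percent of a cell's reads from ribosomal protein genes (horizontal axis, in equal bins) for the S-phase side, the mitotic side and all CN4 cells, with a dotted line at 5%. All 3 groups had modes on either side of the line, and the cells under 5% were 37.3% of the S-phase side and 45.9% of the mitotic side.

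The same selection was applied to the other lines with a table of reads, side by side and without a test, since each is 1 library. In XN1 it gave 726 S-phase cells (5.02% of 14452) and 850 mitotic cells (5.88%), with medians of 6976 and 6310.5 reads, and in XN4 307 (3.51% of 8741) and 364 (4.16%), with medians of 23024 and 15554 reads. In KN1, whose table held normalized values only, 14 (0.352%) and 73 (1.84%) of 3975 cells met it, too few to be described further. The shares depend on the depth and on the cells kept in each table, and cannot be told apart from these across lines. In XN1, 307 of 10412 genes (2.95%) were at least 2-fold higher on the mitotic side and 277 (2.66%) on the S-phase side, and in XN4 331 (3.22%) and 398 (3.87%) of 10293.

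The sides of every line came from the same selection genes, so that a cell cycle contrast within each line follows from the selection. The overlaps and medians given here therefore carry no conclusion on agreement between the lines. Of the 289 CN4 mitotic genes, 271 were measured in XN1 and 215 (79.3%) were at least 2-fold higher on its mitotic side. These were 74.9% of the 287 XN1 genes that were measured in CN4. In XN4 it was 190 of 262 (72.5%, and 65.3% of 291). Of the 285 CN4 S-phase genes, 121 of 248 were also past 2-fold in XN1 (48.8%, and 50.8% of 238) and 67 of 220 in XN4 (30.5%, and 22.7% of 295). The mitosis lists had a median log2 ratio of 2.19 in CN4, 1.90 in XN1 and 2.15 in XN4, and the replication lists -0.96, -0.93 and -0.56. The replication median lay nearest to 0 in XN4, the line whose S-phase cells were much deeper than its mitotic cells, and the part of depth in this was not tested.

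**Figure D5:**
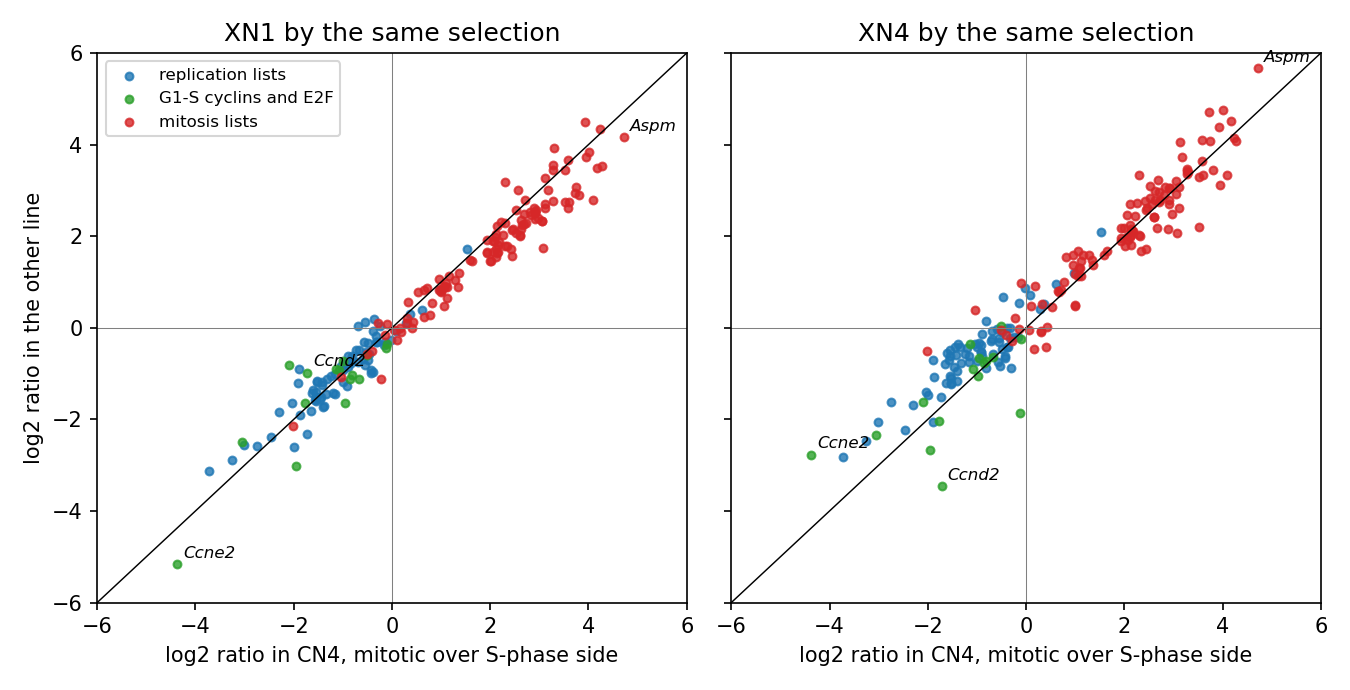
Log2 ratio of RPM, mitotic over S-phase side, in CN4 (horizontal axis) against XN1 (left) and XN4 (right) for genes of the replication lists, the G1-S list and the mitosis lists, each point a gene, with the diagonal as a line of equal ratios. Each line was divided by the same selection genes, so that its cell cycle contrast follows from the selection. Mitosis genes had medians of 2.19 in CN4, 1.90 in XN1 and 2.15 in XN4, with single genes off the diagonal. Of them, 2 in CN4, 3 in XN1 and 0 in XN4 were at least 2-fold higher on the S-phase side. Replication genes lay nearer to 0 in XN4 than in CN4 (medians -0.56 and -0.96).

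Single genes of the contrast differed among the lines. *Ccne2* had a log2 ratio of -4.37 in CN4, -5.16 in XN1 and -2.77 in XN4. Its XN1 value rested on 10 reads on the mitotic side, and its counting interval overlapped that of CN4. *Ccnd1* had -2.09, -0.82 and -1.63, *Ccnd2* -1.72, -0.98 and -3.45, and *Ccnd3* -0.82, -1.02 and -0.73. In XN1, *Ccnd1* was below 2-fold, and the counting intervals of *Ccnd2* and *Ccnd3* both included a 2-fold difference. *Pax6* had 1.08 in CN4 and 0.82 in XN1, and was below the minimum in XN4, with 3 reads on the S-phase side and 1 read on the mitotic side. *Rasl11a*, among the 12 largest ratios of the S-phase side in CN4, had -2.28, -2.19 and -0.36. The CDK inhibitor list had a median of 0.57 in CN4, 0.62 in XN1 and -0.16 in XN4, with 5, 5 and 1 genes at least 2-fold higher on the mitotic side.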

How the data were processed

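Cells of 4 NSC lines were captured by BD Rhapsody with 1 library per line. The read tables' headers name the BD Rhapsody WTA Analysis Pipeline 1.12.1, and the submitters' processing notes name Seurat 4.3.0 and the mouse build mm10. The deposited CN4, XN1 and XN4 tables hold counts of reads per gene and cell, not of molecules. The deposited normalized tables hold natural log values of 1 plus 10000 times a gene's share. They were used for KN1 and, in CN4, for the list of 3448 cells they hold. The paper states that the normalized cells were drawn at random from each library. KN1 is thus counted here by a subset of its library, also in the total of the series.

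Reads were summed over the cells of a side and divided by the side's total. Genes with a mean of at least 5 RPM were compared and called at 2-fold. Poisson, binomial and conditional ratio intervals were exact at 95% and cover counting error only. A count of 0 allows up to 3 reads. The script was tested on simulated data. No p-value was computed.

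The members and lists were chosen with earlier results of these data known. Named genes were the 12 with the largest ratio on each side among those of at least 20 RPM, without mitochondrial genes and numbered Gm models, and members of the lists, of which those below 2-fold were in part singled out after their values were seen. Alternatives changed the selection, the depth, the scaling and the minimum. Values were computed with Python 3.11.15, NumPy 2.4.6 and SciPy 1.17.1, and figures with matplotlib 3.10.9.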

Additional observations from a re-analysis of the deposited data

Results flagged for a closer look

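The immediate early gene *Fos* was higher on the mitotic side in CN4 and on the S-phase side in XN1. It was flagged because its counting intervals left out a ratio of 1 in either line. Those intervals take each read as independent and do not cover the spread between cells or libraries. Its log2 ratio, mitotic over S-phase side, was 0.60 in CN4 (104 and 158 RPM) and -0.79 in XN1 (54.4 and 31.5 RPM). Its paralog *Fosb* was likewise 0.80 in CN4 (13.2 and 23.0 RPM) and -0.89 in XN1 (7.27 and 3.92 RPM). In XN4 the ratios were -0.57 for *Fos* and 0.36 for *Fosb*. The median over the measured immediate early genes was -0.05 in CN4, -0.63 in XN1 and -0.64 in XN4. *Hes6*, a gene of neuronal commitment, was 0.73 in CN4 (45.0 and 74.6 RPM) and -0.62 in XN4 (10.9 and 7.10 RPM). With 1 library for each line, the difference between the lines was not tested.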

How the results depend on the processing

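No alternative changed the sign of a ratio or difference, but the order of the numbers of cells on the sides turned under 2 of them. The order of the numbers of genes past 2-fold also turned under several, such as 251 on the S-phase side and 240 on the mitotic side with 2 reads. The numbers of cells followed the selection, given as the S-phase and then the mitotic side (2507 and 2014 as reported). They were 2120 and 2418 with at least 2 reads for a gene, 917 and 858 under a stricter and 3040 and 2471 under a looser selection, 2368 and 2450 with cells thinned before the selection, and 489 and 442 among cells of the normalized table. Cells under 5% of ribosomal protein reads were 936 and 924 and the others 1571 and 1090, a split chosen after seeing the data. Genes at least 2-fold higher on the S-phase side were 285 as reported, 428 under the stricter selection, 429 in cells of the normalized table and 135 at a minimum of 20 RPM, where those on the mitotic side were 289, 406, 374 and 195. The median of the mitosis lists, 2.19, was 1.70 with 2 reads and 2.56 under the stricter selection. The mitochondrial difference of medians (mitotic minus S-phase side), 1.10 percentage points, was 1.61 under the stricter selection and 0.340 in cells of 5% or more ribosomal protein reads. The ribosomal protein difference, -1.46, was -0.999 with 2 reads, -2.31 under the stricter selection, -0.180 in cells under 5% and -0.637 in the others. The cause was not tested, beyond the fewer cells or genes that an alternative keeps. All 240 values of the 24 genes with the largest ratios stayed past 2-fold in the same direction, 75 of them moved beyond their counting interval. These genes were chosen for the size of their ratios in the same or overlapping cells, so that staying past 2-fold was nearly certain. No paired analysis was possible because each line was 1 library. Without a second CN4 library, the spread between samples is unknown, reads are not molecules, and doublets and free RNA were not removed.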
